A study of Mus musculus with 16 samples.

Results

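The p53-246 lymphomas are Myc-induced B cell lymphomas from mice with the p53 genotype 246/-, 1 allele named 246 over a null allele, and they were set against normal B cells of the same genotype. The 6 lymphomas and 2 normal samples were chosen by their titles and make up 8 of the 16 samples of the series. The other 8 are 6 lymphomas and 2 normal samples of the genotype p53 -/- (p53-null), which entered the fit to estimate the spread and are given only where both genotypes are set side by side. All mice had a mixed C57BL6 and 129 background. Lymphoma cells came from lymph nodes and normal B cells from spleen, so organ and cell state cannot be told apart. The labels state neither the promoter that drives Myc nor what the 246 allele encodes. They do not say that the samples of a group came from separate animals. The p-values cover the spread between samples, which may be technical in part. Other cells were removed on magnetic columns, and the RNA left was hybridised to Affymetrix mouse exon arrays, 1 array per sample. Values are log2 intensities per transcript cluster, the array's unit for a gene. Of 23332 transcript clusters 14996 carry 1 gene symbol, and the brightest cluster of each symbol gave 14860 tested genes.

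Myc is a transcription factor that drives cell growth: ribosome production, nucleotide and amino acid supply, and entry into S phase. p53, the product of Trp53, is activated by the Arf protein when Myc is too active and switches on genes that stop the cycle or kill the cell, which is why Myc-driven B cell tumours commonly lose the pathway. Resting spleen B cells carry complement, IgE and antigen receptors at the surface, present antigen on class II molecules and hardly divide. Trp53 itself is not analysed here, since no transcript cluster carries its symbol alone.

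Level and spread of the arrays were compared first. Values of the 6 lymphomas correlated at 0.947 to 0.989 with each other over genes, those of the 2 normal samples at 0.986, and lymphoma with normal values at 0.86 to 0.909. Lymphoma 6 had a compressed range, with an SD over genes of 1.56, against 1.78 to 1.94 in the other lymphomas and 1.69 and 1.73 in the normal samples, and was the lymphoma farthest from the median of the 6 in 48.3% of 7175 genes above background. As background served 799 olfactory and vomeronasal receptor genes: a group whose mean lay under 5.165, the 95th percentile of their means, is called near background here, and a fold against it is given as a lower bound. Eif2s3y and Kdm5d, Y-linked genes, were high in lymphomas 1 and 2 and normal sample 1 and low in the other 5 samples. In normal samples 1 and 2 Eif2s3y stood at 9.52 and 3.51 and Kdm5d at 8.28 and 4.12, so these were not repeats of 1 animal. Sex was not a term of the fit. Of 7 pan-B markers measured, Cd79a and Cd79b, which form the signalling part of the B cell receptor, stood at 5.98 to 9.39 (median 8.07) and 10.57 to 11.56 (median 11.21) in the lymphomas and at 8.82 and 7.86 and 12.06 and 11.94 in normal samples 1 and 2, so all 8 samples carried B cell transcripts. The other 5, Ms4a1, Pax5, Ebf1, Blnk and Vpreb3, were also above background in both groups. Of the 7, 5 fell and 1 rose, where 10.6% and 14.5% of all tested genes did. The rise and some of the falls lost their call when normal sample 1 or normal sample 2 was left out.

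The first question was which genes separated lymphomas from normal B cells. After Benjamini-Hochberg adjustment of limma's moderated test, 3738 genes, or 25.2% of those tested, passed the threshold of 0.05. Of these, 2161 were higher in lymphomas (14.5% of tested genes) and 1577 lower (10.6%). These counts depended on single arrays: 2418 genes passed without normal sample 1 and 2407 without normal sample 2, with 961 and 883 of them lower, and array weights gave 6180 genes, 3019 higher and 3161 lower. The changes were large: 1217 genes rose and 766 fell at least 2-fold, 284 rose and 219 fell at least 4-fold, and 11 rose and 23 fell at least 16-fold. All 6 lymphomas lay above both normal samples in 2634 genes (17.7%) and below both in 2233 (15%), together 32.8%. Of the genes past the threshold, 144 had overlapping groups. The median log2 difference over all tested genes was -0.05. Rises and falls below are log2 differences, lymphomas minus normal samples, unless given as folds, and stand as measured also where a group is near background. In 362 of the genes that rose the normal mean was near background, and in 416 of those that fell the lymphoma mean was. Counts of risen and fallen members in the lists below are to be set beside the 14.5% and 10.6% above.

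**Figure D1:**
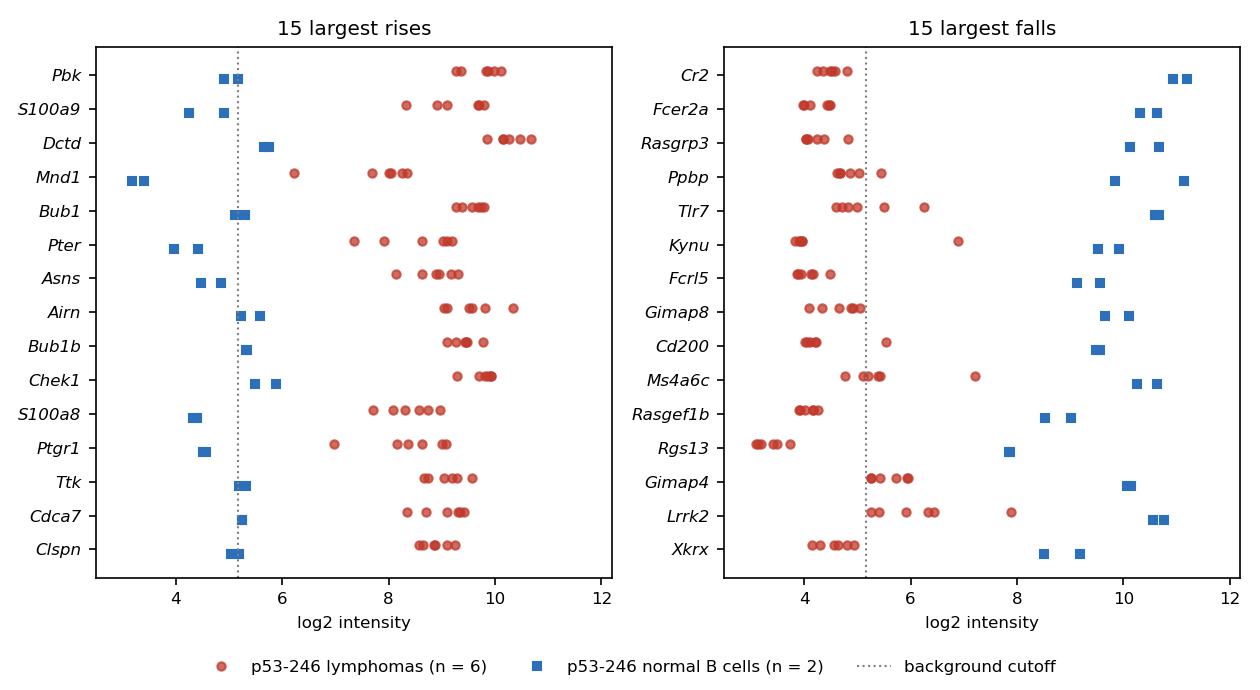
Log2 intensity (x axis) of the 15 genes with the largest rises (left) and falls (right) among genes past the threshold whose groups did not overlap, with 1 circle per p53-246 lymphoma and 1 square per p53-246 normal sample. The dotted line marks the background cutoff of 5.165. Most of the fallen genes lie left of it in the lymphomas and no normal value of the risen genes lies above 5.89.

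Among the 15 largest rises were mitotic and replication genes, metabolic enzymes and a pair of neutrophil genes. Bub1, a kinase of the spindle checkpoint, stood at 9.27 to 9.79 (median 9.62) in the lymphomas, against 5.30 and 5.11 in the normal samples (log2 difference 4.36, SE 0.16, adjusted p = 1.46e-11). Dctd, the deaminase that makes dUMP for thymidylate synthesis, stood at 9.85 to 10.68 (median 10.20) in the lymphomas, against 5.66 and 5.76 in the normal samples, a 23.4-fold rise (log2 difference 4.55, SE 0.25, adjusted p = 1.01e-09). Mnd1, a factor of homologous chromosome pairing in meiosis, stood at 6.22 to 8.35 (median 8.03), with lymphoma 6 lowest, against 3.41 and 3.17 in the normal samples, which is at least 6.05-fold higher in lymphomas. Airn, a long noncoding RNA that overlaps the Igf2r gene on the other strand, rose by 4.17 (SE 0.36). The other members of the 15 were Pbk, Pter, Asns, Bub1b, Chek1, Ptgr1, Ttk, Cdca7, Clspn and the neutrophil genes S100a8 and S100a9. In all 15 the lowest lymphoma lay above both normal samples, as the choice of these genes requires.

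The 15 largest falls included receptors and signalling proteins of mature B cells. Cr2, the complement receptor that lowers the threshold of B cell activation, stood at 4.24 to 4.81 (median 4.50) in the lymphomas, against 10.93 and 11.19 in the normal samples, at least 59.4-fold lower in lymphomas (log2 difference -6.56, SE 0.23, adjusted p = 7.96e-12). Fcer2a, the low-affinity IgE receptor CD23, stood at 3.97 to 4.49 (median 4.27) in the lymphomas, against 10.63 and 10.31 in the normal samples, at least 39.5-fold lower. Rasgrp3, a Ras activator downstream of the B cell receptor, stood at 4.03 to 4.82 (median 4.16) in the lymphomas, against 10.67 and 10.12 in the normal samples, at least 37.5-fold lower. For these genes every lymphoma was at the level of unexpressed receptor genes. Lrrk2, a large kinase, differed more among lymphomas: it stood at 6.43, 6.33, 5.27, 7.89, 5.91 and 5.41 in lymphomas 1 to 6, against 10.56 and 10.76 in the normal samples. The others were Ppbp, Tlr7, Kynu, Fcrl5, Gimap8, Cd200, Ms4a6c, Rasgef1b, Rgs13, Gimap4 and Xkrx. In bulk RNA of sorted cells, fewer cells of a type and less RNA per cell cannot be told apart.

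**Figure D2:**
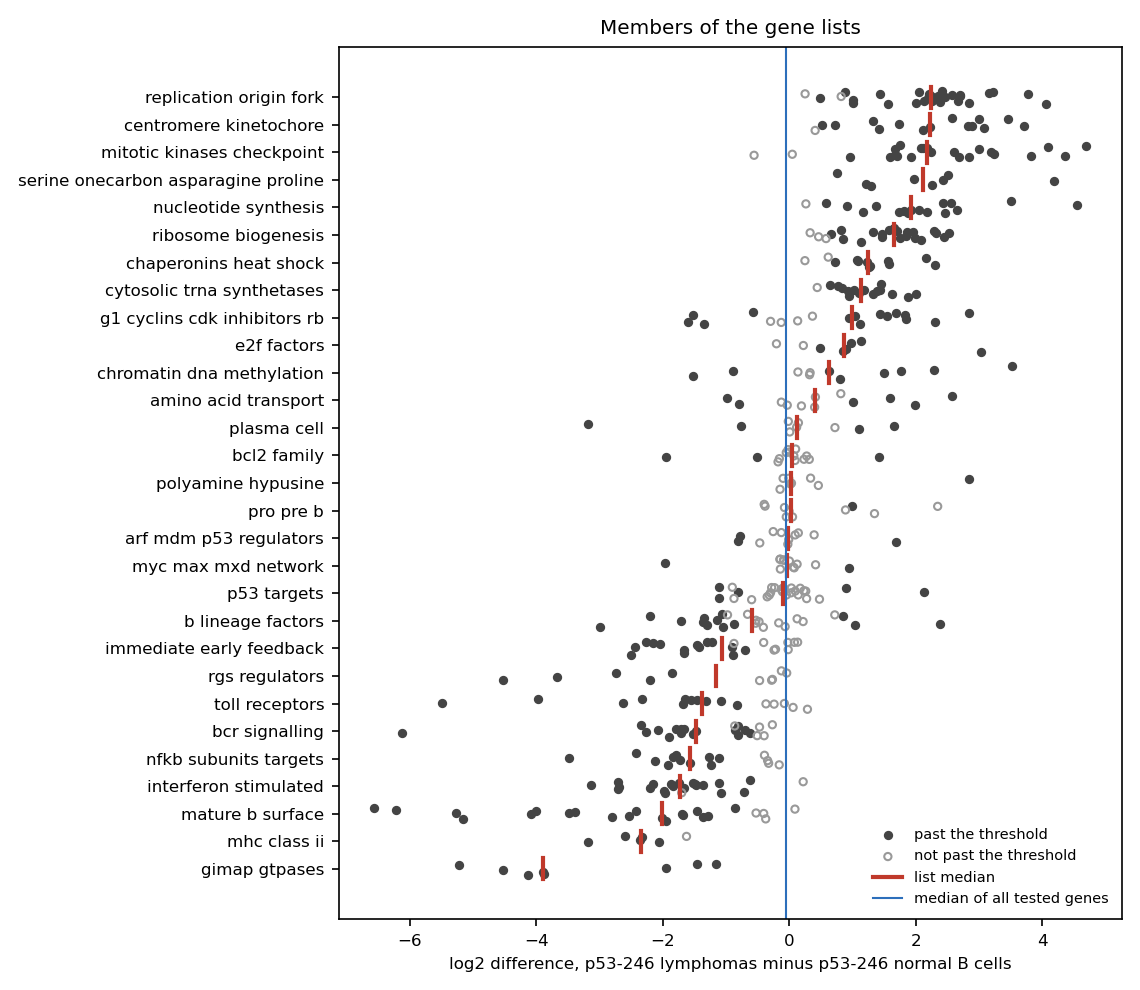
Log2 difference of p53-246 lymphomas minus p53-246 normal B cells (x axis) for the measured members of each gene list (rows, ordered by list median). Filled points passed the threshold over all genes, open points did not, red bars are list medians and the blue line is the median of all tested genes at -0.05. Replication, kinetochore, mitotic and serine lists have medians of 2.12 to 2.25, and the mature B surface, class II and Gimap lists medians of -2.0 to -3.89.

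Genes of mitosis rose almost without exception. Of 23 measured mitotic kinases, cyclins and checkpoint genes, 21 rose and none fell, against 14.5% and 10.6% of all tested genes. The list median was 2.17. In all 21 the groups did not overlap, which also held for 2083 of all 2161 genes that rose. Cdk1, the kinase that starts mitosis, stood at 7.45 to 7.89 (median 7.68) in the lymphomas, against 4.67 and 5.02 in the normal samples (log2 difference 2.84, SE 0.18, adjusted p = 3.93e-09). Its partners Ccna2 and Ccnb2 rose by 3.19 (SE 0.15) and 2.69 (SE 0.19). Aurkb, the kinase of the chromosomal passenger complex, rose by 2.60, and its partners Birc5, Cdca8 and Incenp by 3.01, 3.25 and 2.11. Bub1b and Ttk, further checkpoint kinases, rose by 4.10 and 3.83, whereas Bub3 and Mad2l1, which act with them, rose by 1.60 and 1.67. Ube2c and Cdc20, an enzyme and an activator of the ligase that ends mitosis, rose by 1.76 and 1.68. The 2 members that did not pass were Fzr1, the other activator of that ligase (0.05, adjusted p = 0.873), and Pttg1, the separase inhibitor (-0.56, adjusted p = 0.639).

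Kinetochore genes rose in 14 of 15 measured cases, with a median of 2.23. Cenpn, which reads the centromeric histone, stood at 8.49 to 9.66 (median 9.29) in the lymphomas, against 5.62 and 5.36 in the normal samples (log2 difference 3.71, SE 0.28, adjusted p = 3.94e-08). Nuf2, a subunit of the complex that grips microtubules, stood at 8.56 to 9.35 (median 8.98) in the lymphomas, against 5.60 and 5.39 in the normal samples (log2 difference 3.47, SE 0.19, adjusted p = 1.01e-09), and its partners Ndc80, Spc24 and Spc25 rose by 1.74, 2.23 and 2.12. Cenpa, the centromeric histone itself, rose by 0.73 (SE 0.20), a call that was lost without either normal sample (adjusted p = 0.0528 without normal sample 1 and 0.124 without normal sample 2). Cenpo stood at 0.41 (adjusted p = 0.222).

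Promoters of these genes are shown because CCAAT and CHR letters, which the choice of genes did not use, were more frequent in promoters of the mitotic list than in those of all tested genes. Windows of 250 bases before to 50 after the first listed start of each gene were taken from RefSeq (GRCm38.p6) for 11894 tested genes. They were searched on both strands for the CCAAT box (CCAAT), the cell cycle homology region or CHR (TTTGAA or TTCGAA), an E2F site (TTTGGCGC or TTTCGCGC) and the Myc E-box (CACGTG). Of 19 mitotic list promoters, 14 (73.7%) held CCAAT and 12 (63.2%) a CHR, against 38.5% and 16.3% of all 11894. Among genes higher by at least 4-fold, 54.2% of 238 promoters held CCAAT and 31.9% a CHR, and among those lower by at least 4-fold 37.7% and 21.7% of 175. Among all genes that rose the shares were 42.9% and 18.2% of 1796, and among all that fell 36.4% and 14.7% of 1275. The next lines show the 3 with the largest rise of those that hold both motifs within 120 bases before the start, 5′ to 3′ on the gene's strand, with the motifs in capitals (ATTGG and TTCAAA are the CCAAT box and CHR on the other strand).
Cdk1, chr10:69352913-69353032, minus strand: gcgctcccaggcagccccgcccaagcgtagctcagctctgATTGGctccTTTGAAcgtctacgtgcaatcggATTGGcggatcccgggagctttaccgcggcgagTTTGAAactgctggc
Ube2c, chr2:164769809-164769928, plus strand: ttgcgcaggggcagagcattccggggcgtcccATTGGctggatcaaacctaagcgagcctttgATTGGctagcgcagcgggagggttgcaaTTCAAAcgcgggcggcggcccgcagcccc
Cdc20, chr4:118437344-118437463, minus strand: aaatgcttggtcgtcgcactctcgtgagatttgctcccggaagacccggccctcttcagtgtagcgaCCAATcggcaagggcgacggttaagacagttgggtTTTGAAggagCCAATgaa
Cdk1 holds both motifs in 2 copies, and Ube2c and Cdc20 hold 2 CCAAT boxes and 1 CHR each. A match of letters is a description of the sequence and no evidence of binding.

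The switch from G1 to S phase was less uniform. Of 18 measured G1 cyclins, cyclin-dependent kinases, their inhibitors and Rb family genes, 10 rose and 4 fell, with a median of 1.0. Of all tested genes 14.5% rose and 10.6% fell. Ccne2, a cyclin that fires S phase with Cdk2, stood at 9.32 to 9.88 (median 9.62) in the lymphomas, against 6.48 and 7.02 in the normal samples (log2 difference 2.84, SE 0.22, adjusted p = 5.25e-08). Ccnd1 rose by 2.30 (SE 0.31), whereas Ccnd2, the D cyclin that antigen receptor signalling induces in B cells, fell by 1.53 (SE 0.40, adjusted p = 0.00794, and 0.151 without normal sample 1). The 2 groups overlapped for Ccnd2, which stood at 6.46, 7.29, 5.56, 5.09, 5.58 and 5.61 in lymphomas 1 to 6, against 7.75 and 7.17 in the normal samples. Cdk4 and Cdk6, the kinases of D cyclins, rose by 1.55 and 1.83, and Cdc25a, the phosphatase that activates Cdk2, by 1.84. The Rb family split: Rb1 and Rbl2, which hold resting cells out of the cycle, fell by 1.60 (SE 0.30) and 1.34 (SE 0.28), and Rbl1, itself an E2F target, rose by 1.04 (SE 0.18). Without normal sample 1, 2 of the 4 falls were left.

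Of 8 measured E2F family genes 6 rose and none fell. E2f8, a repressor that accumulates in S phase, stood at 8.53 to 9.10 (median 8.78) in the lymphomas, against 5.81 and 5.74 in the normal samples (log2 difference 3.03, SE 0.20, adjusted p = 6.67e-09), and its relative E2f7 rose by 1.14 (SE 0.14). The activators E2f1 and E2f2 stood at 0.48 (adjusted p = 0.0409) and 0.22 (adjusted p = 0.71). Only E2f7 and E2f8 of this list kept their call without normal sample 2.

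DNA replication showed the same pattern as mitosis, with 28 of 30 measured genes higher, none lower and a median of 2.25. All 6 subunits of the replicative helicase rose, Mcm2 to Mcm7, by 2.01 (Mcm5) to 2.84 (Mcm3). Cdc6 and Orc1, which load the helicase, rose by 2.70 and 2.25, and the loading inhibitor Gmnn by 2.41. Chek1, the kinase that holds back mitosis while forks are stalled, stood at 9.29 to 9.92 (median 9.85) in the lymphomas, against 5.89 and 5.49 in the normal samples (log2 difference 4.06, SE 0.17, adjusted p = 3.67e-11). Clspn, Tipin and Timeless, which relay the signal to it, rose by 3.77, 2.37 and 1.01. Dtl, which directs the destruction of the licensing factor Cdt1, stood at 8.0 to 8.66 (median 8.57) in the lymphomas, against 5.44 and 5.02 in the normal samples (log2 difference 3.22, SE 0.18, adjusted p = 9.38e-10). Cdt1 itself rose by 0.50 (SE 0.15), a call lost without either normal sample (adjusted p = 0.159 and 0.0975 without normal samples 1 and 2). Of the polymerase genes Pole and Pola1 rose by 3.16 and 2.24, and Pold1 stood at 0.25 (adjusted p = 0.281).

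E2F letters were frequent in the promoters of this list. An E2F site stood in 10 of 23 replication promoters (43.5%), against 1.3% of all 11894, 3.34% of the 1796 promoters of genes that rose and 0.784% of the 1275 of genes that fell. The E-box stood in 0 of the 23. The next lines show 3 of the 10, those with the largest rise among promoters with an E2F match in the 120 bases before the start, with E2F sites and CCAAT boxes in capitals.
Dtl, chr1:191575545-191575664, minus strand: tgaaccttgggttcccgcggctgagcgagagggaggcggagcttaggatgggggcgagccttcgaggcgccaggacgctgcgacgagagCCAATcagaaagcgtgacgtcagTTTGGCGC
Mcm6, chr1:128359706-128359825, minus strand: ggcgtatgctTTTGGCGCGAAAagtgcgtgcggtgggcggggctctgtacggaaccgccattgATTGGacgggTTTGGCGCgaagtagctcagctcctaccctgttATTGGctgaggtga
Orc1, chr4:108579334-108579453, plus strand: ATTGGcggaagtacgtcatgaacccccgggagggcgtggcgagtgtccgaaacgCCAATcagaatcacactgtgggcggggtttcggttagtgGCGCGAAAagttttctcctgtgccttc
In Mcm6 an E2F match on each strand overlap in the first run of capitals, and a further match follows downstream. In Orc1 the E2F match is on the other strand.

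Nucleotide synthesis genes rose in 16 of 17 cases, with a median of 1.93. Ctps, which makes CTP, stood at 8.95 to 9.60 (median 9.22) in the lymphomas, against 5.52 and 5.91 in the normal samples (log2 difference 3.51, SE 0.19, adjusted p = 9.07e-10). Along the pathway to purines Ppat rose by 2.65, Gart by 2.47, Paics by 1.17, Adsl by 1.87 and Atic by 2.06. Of the pyrimidine pathway Cad rose by 1.82 and Umps by 2.18. Rrm1, the large subunit of ribonucleotide reductase, rose by 2.43, and Tyms, thymidylate synthase, by 1.74. Impdh1 stood at 0.26 (adjusted p = 0.563). The smallest number of risen members under any alternative setting was 13.

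All 8 measured genes of serine, one-carbon, asparagine and proline synthesis rose, with a median of 2.12. Asns, asparagine synthetase, stood at 8.14 to 9.31 (median 8.92) in the lymphomas, against 4.47 and 4.85 in the normal samples, at least 12.9-fold higher (log2 difference 4.19, SE 0.29, adjusted p = 1.13e-08). Shmt1 and Shmt2, which move a carbon from serine to folate in cytosol and mitochondria, rose by 2.51 and 2.44, and the folate enzymes Mthfd1 and Mthfd2 by 2.26 and 1.98. Amino acid transporters moved in both directions, with 4 of 12 higher and 2 lower, against 14.5% and 10.6% of all tested genes. Slc7a5, the light chain of the leucine transporter, rose by 2.57 (SE 0.22), while its heavy chain Slc3a2 stood at 0.19 (adjusted p = 0.655). The falls, Slc38a9 (-0.98) and Slc43a1 (-0.80), were both lost without normal sample 1 (adjusted p = 0.118 and 0.154) and without normal sample 2 (0.0943 and 0.0895). Of 8 polyamine and hypusine genes only Srm, spermidine synthase, passed, against 25.2% of all tested genes. Srm stood at 7.52 to 8.67 (median 7.81) in the lymphomas, against 5.19 and 4.96 in the normal samples (log2 difference 2.84, SE 0.25, adjusted p = 1.99e-07).

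Of 24 measured ribosome biogenesis genes 21 rose and none fell, with a median of 1.65. Wdr12, a factor of large subunit maturation, stood at 7.71 to 8.99 (median 8.68) in the lymphomas, against 5.94 and 6.21 in the normal samples (log2 difference 2.52, SE 0.29, adjusted p = 4.52e-06). Polr1a and Polr1b, the largest subunits of RNA polymerase I, rose by 1.99 and 2.45. Nop56 and Nop58, which guide methylation of ribosomal RNA, rose by 1.66 and 1.86, and Ncl, nucleolin, by 0.67. Pes1, Rrp12 and Noc3l did not pass, at 0.47, 0.33 and 0.58. The E-box stood in 4 of 22 promoters of the list (18.2%), 12.5% of the 1796 promoters of all genes that rose, 9.02% of those of genes that fell and 8.87% of all. Among genes higher by at least 4-fold it stood in 9.24% of 238 promoters, and among those lower by at least 4-fold in 9.71% of 175.

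Cytosolic tRNA synthetases, which charge tRNAs with amino acids, rose in 15 of 16 cases, with a median of 1.14. The largest rises were those of Kars (2.01, SE 0.26), Gars (1.87, SE 0.17) and Hars (1.62, SE 0.21), and Cars stood at 0.44 (adjusted p = 0.204). Among chaperones 10 of 12 rose, with a median of 1.25. All 6 measured subunits of the cytosolic chaperonin rose, by 1.09 (Cct2) to 2.31 (Cct3), and so did the mitochondrial chaperones Trap1 (2.17) and Hspa9 (1.57). Hsp90aa1 stood at 0.25 (adjusted p = 0.588).

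Chromatin genes moved in both directions. Uhrf1, which brings the maintenance methylase to new DNA, stood at 8.79 to 10.09 (median 9.93) in the lymphomas, against 6.45 and 5.88 in the normal samples (log2 difference 3.52, SE 0.29, adjusted p = 1.06e-07), and the methylase Dnmt1 and the remodeller Hells rose by 1.49 and 2.29. Ezh2, the histone methylase of dividing cells, rose by 1.76 (SE 0.17), and Ezh1, its counterpart in resting cells, fell by 0.89 (SE 0.19). Tet2, which oxidises methylcytosine, fell by 1.52 (SE 0.37, adjusted p = 0.0043, and 0.0633 without normal sample 1). In all, 6 of 11 rose and 2 fell, against 14.5% and 10.6% of all tested genes.

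Of 12 genes for Myc, Max and their partners and antagonists, 1 rose and 1 fell, against 14.5% and 10.6% of all tested genes. Myc stood at 5.82, 5.86, 5.80, 5.88, 6.21 and 6.17 in lymphomas 1 to 6, against 7.94 and 7.91 in the normal samples, so that it fell by 1.97 (SE 0.20, adjusted p = 7.95e-07). The labels give no probe positions: whether the probes of this transcript cluster read the transcript that drives the lymphomas is not stated there. Mxi1, a Max partner that opposes Myc, rose by 0.94 (SE 0.19). Max, Mnt and Mga, the shared partner and 2 further members, stood at 0.08, 0.00 and -0.09, and Mycn and Mycl at -0.08 and -0.14.

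Of 26 measured genes that p53 switches on, 2 rose and 3 fell, against 14.5% and 10.6% of all tested genes, with a median of -0.10. Cdkn1a, the cycle inhibitor p21, was near background in both groups, at 4.02 to 4.64 (median 4.35) in the lymphomas and 4.55 and 4.42 in the normal samples (-0.13, SE 0.17). Mdm2, the ligase that degrades p53, stood at 8.63, 8.38, 8.30, 8.69, 7.88 and 7.33 in lymphomas 1 to 6, against 9.02 and 9.01 in the normal samples (log2 difference -0.81, SE 0.27, adjusted p = 0.0309). Its call was lost under 7 alternatives, among them centring the arrays (adjusted p = 0.106) and leaving out lymphoma 5 (0.0567), normal sample 1 (0.172) or normal sample 2 (0.165). Gadd45a, a stress sensor, and Fas, a death receptor, fell by 1.12 (SE 0.21) and 1.10 (SE 0.20). Gtse1, a mitotic protein that restrains p53, rose by 0.89 (SE 0.14). Plk2, a kinase, rose by 2.13 (SE 0.53), and its call was lost without either normal sample (adjusted p = 0.0567 and 0.0566 without normal samples 1 and 2). The death genes Bbc3 and Pmaip1 stood at 0.28 (adjusted p = 0.271) and 0.23 (adjusted p = 0.611).

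Upstream of p53, Cdkn2a, the locus that encodes Arf and the Cdk4 inhibitor p16, stood at 6.47 to 6.89 (median 6.58) in the lymphomas, against 4.78 and 5.12 in the normal samples (log2 difference 1.69, SE 0.15, adjusted p = 2.58e-07). The normal mean was near background, which makes the rise at least 2.77-fold. One value covers the locus, so Arf and p16 are not separated. Mdm4, the partner of Mdm2, stood at -0.46 (adjusted p = 0.204), and Ppp1r13b, a p53-binding protein, fell by 0.78 (SE 0.15). Of the 14 measured Bcl2 family genes 1 rose and 2 fell, against 14.5% and 10.6% of all tested genes. Bcl2, the survival protein of resting lymphocytes, stood at 5.51 to 6.05 (median 5.83) in the lymphomas, against 7.64 and 7.88 in the normal samples (log2 difference -1.95, SE 0.21, adjusted p = 1.58e-06). Bak1, which opens the mitochondrial membrane, rose by 1.42 (SE 0.25). Mcl1 fell by 0.52 (SE 0.15, adjusted p = 0.018), lost on centring (0.0887) and without normal sample 1 (0.237) or 2 (0.0553). Bcl2l11, the killer that Myc-driven lymphocytes are known to use, stood at -0.05 (adjusted p = 0.903).

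Transcripts for surface proteins of mature B cells were lower in most cases: 19 of 23 measured genes fell, none rose and the median was -2.0. Homing receptors were among them. Cxcr5, which brings B cells to follicles, stood at 3.20 to 3.42 (median 3.36) in the lymphomas, against 7.49 and 7.34 in the normal samples (log2 difference -4.08, SE 0.16, adjusted p = 1.57e-11), and Ccr6, Ccr7 and S1pr1 fell by 3.38, 1.46 and 1.70. Of the Fc receptor-like proteins Fcrl5 and Fcrl1 fell by 5.26 and 4.01. Cd200, an inhibitory ligand, was at 4.01 to 5.53 (median 4.16) in the lymphomas, with lymphoma 6 highest, against 9.48 and 9.56 in the normal samples. Ms4a1, the CD20 antigen, fell by 2.79 (SE 0.42) and stayed above background in the lymphomas. Cd79a stood at -0.37 (adjusted p = 0.781), Cd37 at -0.52 and Tnfrsf13b at -0.40. The fewest falls under any alternative setting were 14.

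Signalling below the B cell receptor was lower in 16 of 21 measured genes and higher in none, with a median of -1.48. Pik3ap1, which links the receptor to phosphoinositide kinase, stood at 5.68 to 7.17 (median 6.41) in the lymphomas, against 8.82 and 8.63 in the normal samples (log2 difference -2.34, SE 0.35, adjusted p = 7.65e-05). Ptpn22, a phosphatase that dampens receptor signals, fell by 2.27 (SE 0.45), and Ptprc, the surface phosphatase CD45, by 1.79 (SE 0.22). The kinase Syk and the adaptor Blnk fell by 1.66 and 1.48. Plcg2, Pik3cd, Vav1, Inpp5d and Fyn did not pass, at -0.86 to -0.27. Without normal sample 1 the count was 9, and among those lost was Blk, a Src family kinase (-2.07, adjusted p = 0.00301, and 0.0672 without that sample).

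Transcription factors of the lineage were lower in 10 of 24 cases and higher in 3, with a median of -0.59. Of all tested genes 10.6% were lower and 14.5% higher, so the count of rises was near that share. Bcl6, the germinal centre repressor, stood at 4.15 to 4.64 (median 4.39) in the lymphomas, against 7.39 and 7.39 in the normal samples (log2 difference -2.99, SE 0.17, adjusted p = 1.66e-09), and Bach2, which delays plasma cell formation, fell by 2.20 (SE 0.39). Pax5 and Ebf1, which define B cells, stood at -1.06 (adjusted p = 0.00556, and 0.0907 without normal sample 1) and -1.31 (adjusted p = 0.0159, and 0.149 and 0.0796 without normal samples 1 and 2). Myb, a factor of immature blood cells, stood at 8.62 to 9.02 (median 8.96) in the lymphomas, against 6.75 and 6.21 in the normal samples (log2 difference 2.39, SE 0.18, adjusted p = 3.57e-08), and Tcf3, the E2A factor, rose by 1.05 (SE 0.19). Without normal sample 1, 6 of the 10 falls were left.

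Of 10 measured markers of B cell precursors only Vpreb3 passed the threshold, against 25.2% of all tested genes (1.0, SE 0.32, adjusted p = 0.0264), and it did not without either normal sample (0.0584 and 0.306 without normal samples 1 and 2). Il7r, the receptor for interleukin 7, varied widely and stood at 7.46, 10.04, 8.36, 7.88, 7.69 and 7.43 in lymphomas 1 to 6, against 6.09 and 5.50 in the normal samples (adjusted p = 0.0524). Rag2, part of the receptor gene recombinase, stood at 4.99, 6.51, 3.54, 5.19, 3.89 and 4.17 in lymphomas 1 to 6, against 3.5 and 3.23 in the normal samples (adjusted p = 0.0897). Both were highest in lymphoma 2. Of 9 plasma cell genes 2 rose and 2 fell, against 14.5% and 10.6% of all tested genes. Ell2, an elongation factor of antibody secretion, fell by 3.18 (SE 0.42), and Slamf7, a surface receptor, and Fkbp11, a chaperone of the secretory pathway, rose by 1.65 and 1.11. Sdc1 and Prdm1, which define plasma cells, stood at -0.01 and -0.17. The other fall was that of Edem1, which takes part in clearing misfolded proteins (-0.77, SE 0.23, adjusted p = 0.0214). Its call was lost with the arrays centred (adjusted p = 0.081), without normal sample 1 (0.182) and without normal sample 2 (0.0968).

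Class II genes, which present antigen, were lower in most cases. Of 6 measured class II genes 5 fell: H2-Oa by 3.19 (SE 0.27), H2-Aa by 2.60 (SE 0.50), the invariant chain Cd74 by 2.33 (SE 0.40), H2-DMa by 2.07 (SE 0.26) and H2-Ab1 by 2.37 (SE 0.67). The last did not pass without normal sample 1 (adjusted p = 0.0726) or normal sample 2 (0.136). The sixth, H2-Ea, was high in lymphomas 1, 4 and 6 and in normal sample 1 and low in the rest: 10.29, 3.76, 3.80, 11.18, 4.13 and 8.03 in lymphomas 1 to 6, against 11.91 and 5.06 in the normal samples (adjusted p = 0.636). C57BL/6 mice are known to carry a null allele of this chain. Which allele each sample carried, and its part in these values, was not tested.

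Interferon-induced genes were lower in 20 of 22 measured cases and higher in none, with a median of -1.72. Zbp1, a sensor of foreign nucleic acid, stood at 4.87 to 5.43 (median 4.96) in the lymphomas, against 8.04 and 7.44 in the normal samples, at least 5.78-fold lower (log2 difference -2.71, SE 0.24, adjusted p = 2.46e-07). Irf9 and Stat2, 2 parts of the factor that interferon activates, fell by 1.97 (SE 0.28) and 1.67 (SE 0.24), and the antiviral genes Mx1 and Oasl2 by 2.15 and 1.74. Ifitm3, which blocks virus entry, stood at 6.34, 7.04, 6.46, 5.94, 5.89 and 8.38 in lymphomas 1 to 6, against 9.03 and 10.58 in the normal samples (adjusted p = 0.00229, and 0.0927 without normal sample 2). Rtp4 fell by 2.71 (adjusted p = 0.00294, and 0.0667 without normal sample 1). The count was 12 without normal sample 1.

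Of 16 Toll-like receptors and their partners 11 fell, against 10.6% of all tested genes. Some of these calls were lost without normal sample 2. Tlr7, the sensor of single-stranded RNA, stood at 4.82, 6.26, 5.49, 4.59, 4.99 and 4.71 in lymphomas 1 to 6, against 10.67 and 10.60 in the normal samples, at least 37.5-fold lower (log2 difference -5.49, SE 0.47, adjusted p = 1.34e-07). Tlr1, a sensor of bacterial lipoproteins, fell by 3.97 (SE 0.51), Tlr9, the sensor of bacterial DNA, by 1.55 (SE 0.18), and Unc93b1, which carries nucleic acid sensors to endosomes, by 1.65 (SE 0.29). The adaptor Myd88 stood at 0.29 (adjusted p = 0.531).

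All 8 Gimap GTPases, lymphocyte survival proteins encoded in a cluster on chromosome 6, fell, with a median of -3.89. Gimap8 stood at 4.10 to 5.05 (median 4.77) in the lymphomas, against 10.10 and 9.66 in the normal samples, at least 26.3-fold lower (log2 difference -5.22, SE 0.31, adjusted p = 2.34e-09). Gimap4 and Gimap6 fell by 4.52 and 4.14, and the smallest falls were those of Gimap9 (-1.15, adjusted p = 0.00683, and 0.0727 and 0.0581 without normal samples 1 and 2) and Gimap1 (-1.46). Of 10 Rgs genes, which shorten G protein signals of chemokine receptors, 5 fell, against 10.6% of all tested genes. Rgs13 stood at 3.09 to 3.73 (median 3.29) in the lymphomas, against 7.85 and 7.87 in the normal samples, at least 6.48-fold lower, and Rgs2 and Rgs1 fell by 3.68 (SE 0.51) and 2.74 (SE 0.47).

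Immediate early genes, which cells switch on within minutes of a signal, fell in 14 of 22 cases, with a median of -1.06. Jun and Fos, the AP-1 factors, fell by 2.44 (SE 0.20) and 1.66 (SE 0.22), the phosphatase Dusp1 by 2.5 (SE 0.28) and Zfp36, which destabilises cytokine mRNA, by 2.27 (SE 0.21). Junb and Jund stood at -0.22 and -0.24 (adjusted p = 0.617 and 0.346).

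NF-kB genes were mostly lower too, and 1 lymphoma stood apart. Of 15 measured subunits, inhibitors and target genes of NF-kB, the factor that CD40 and antigen receptor signals activate, 11 fell, with a median of -1.57. The mean of the list was 5.59, 6.40, 5.53, 5.60, 5.52 and 5.68 in lymphomas 1 to 6, against 7.23 and 7.11 in the normal samples. Rel, the subunit that mature B cells use, stood at 8.83, 10.79, 8.21, 8.79, 7.77 and 8.04 in lymphomas 1 to 6, against 10.75 and 10.97 in the normal samples, so that lymphoma 2 lay between the normal samples and the other lymphomas below both (log2 difference -2.13, SE 0.51, adjusted p = 0.0045). The call of Rel was lost without normal sample 2 (adjusted p = 0.0625) and stood at -2.54 (adjusted p = 1.87e-06) without lymphoma 2. Birc3, an inhibitor of death receptor signals, stood at 8.91, 10.29, 8.69, 9.07, 8.96 and 8.04 in lymphomas 1 to 6, against 10.85 and 10.82 in the normal samples (log2 difference -1.84, SE 0.37, adjusted p = 0.00118). Cd40 stood at 5.15, 6.38, 5.26, 5.16, 4.93 and 5.36 in lymphomas 1 to 6, against 7.79 and 7.79 in the normal samples, and Cd83, an activation marker, at 4.38, 5.03, 4.27, 4.22, 4.07 and 4.36, against 7.92 and 7.82 in the normal samples. The inhibitors Nfkbia and Tnfaip3 fell by 1.27 (SE 0.18) and 1.80 (SE 0.29), and Rela stood at -0.32 (adjusted p = 0.39). Lymphoma 2 was also highest for Kynu, an enzyme of tryptophan breakdown (3.91, 6.89, 3.92, 3.82, 3.96 and 3.96 in lymphomas 1 to 6, against 9.53 and 9.92 in the normal samples), and for Ms4a6c and Cybb. Cybb is on the list of macrophage markers, whose mean was 5.27 in lymphoma 2 and 4.72 to 5.25 in the other lymphomas. The mean of the natural killer markers was 5.26 in lymphoma 2 and 4.62 to 4.93 in the other lymphomas, and that of the interferon list 5.84 and 4.94 to 5.20. The part of such cells in the result was not tested.

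**Figure D3:**
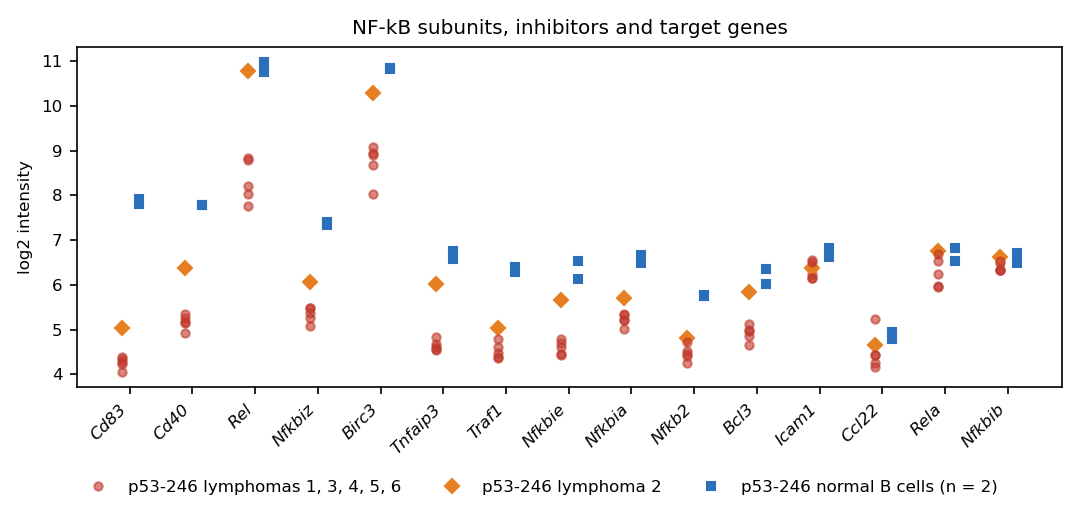
Log2 intensity (y axis) of the 15 measured NF-kB genes (x axis, ordered by log2 difference), with lymphoma 2 as diamonds, the other 5 p53-246 lymphomas as circles and the 2 p53-246 normal samples as squares. Lymphoma 2 lies above the other lymphomas for Rel, Cd40, Cd83 and Birc3, and for Rel between the normal samples.

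Spread within the lymphomas was described without a test. Among genes above background there, the 10 with the largest SD over the 6 lymphomas were H2-Ea, Eif2s3y, Mt2, Cd36, Kdm5d, Taar7b, Utf1, Socs2, Mef2d and Akr1e1. Mt2, a metallothionein, stood at 4.72, 4.85, 8.08, 7.6, 8.22 and 10.60 in lymphomas 1 to 6, against 4.41 and 3.74 in the normal samples (adjusted p = 0.072). Socs2, an inhibitor of cytokine receptors, stood at 8.17, 5.78, 8.88, 4.63, 8.86 and 6.65 in lymphomas 1 to 6, against 3.79 and 3.78 in the normal samples (log2 difference 3.38, SE 0.94, adjusted p = 0.0124). All 6 lymphomas lay above both normal samples, and the call was lost without either normal sample (adjusted p = 0.0929 and 0.0946 without normal samples 1 and 2). Utf1, a chromatin factor of embryonic stem cells, was at 5.02, 4.21, 8.07, 3.86, 7.87 and 4.86 in lymphomas 1 to 6, against 4.08 and 4.12 in the normal samples, high in lymphomas 3 and 5 only. Cd36, a scavenger receptor, was at 9.55, 7.74, 5.43, 10.19, 6.63 and 4.86 in lymphomas 1 to 6, against 8.61 and 9.09 in the normal samples.

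The 2 normal samples differed most in H2-Ea, Eif2s3y, Kdm5d, Ctse and Ccr3. Ctse, a protease of antigen processing, stood at 8.32 to 10.81 (median 10.43) in the lymphomas, against 11.48 and 7.11 in normal samples 1 and 2, and Ccr3, the eotaxin receptor, at 3.36 to 5.17 (median 3.68) in the lymphomas, against 3.91 and 7.70 in normal samples 1 and 2. No difference between lymphomas and normal cells was called for either gene (adjusted p = 0.617 and 0.12).

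Genes of a chromosome deviated together in single lymphomas. For 7175 genes above background in the lymphomas, a filter that favours genes higher there, each lymphoma's deviation from the mean of the 6 was taken, and the median over the genes of a chromosome was set relative to the same array's median over all chromosomes. In lymphoma 4 chromosome 16 lay 0.373 higher over 243 genes, and 74.9% of these were highest in lymphoma 4, against 24.7% of all genes. In lymphoma 2 chromosome 19 lay 0.299 higher, with 49.6% of 252 genes highest there, against 12.4% of all genes. Chromosome 19 was also 0.283 higher in lymphoma 6 and lay at -0.247 and -0.262 in lymphomas 1 and 4. In lymphoma 6 chromosomes 4 and 5 were 0.25 and 0.229 higher, and in lymphoma 3 chromosomes 14, X and 3 were 0.189, 0.162 and 0.151 higher and chromosome 16 at -0.143. Lymphoma 5 stayed between -0.09 and 0.066. The difference of the 2 normal samples, normal 2 minus normal 1 over the same genes and relative to its own median, ranged from -0.03 to 0.058. It is a difference of 2 arrays and not a deviation from a mean of 6, so these ranges are not the same measure. Lymphoma 6 is the array with the compressed range, and the part of that range in its chromosome values was not tested.

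**Figure D4:**
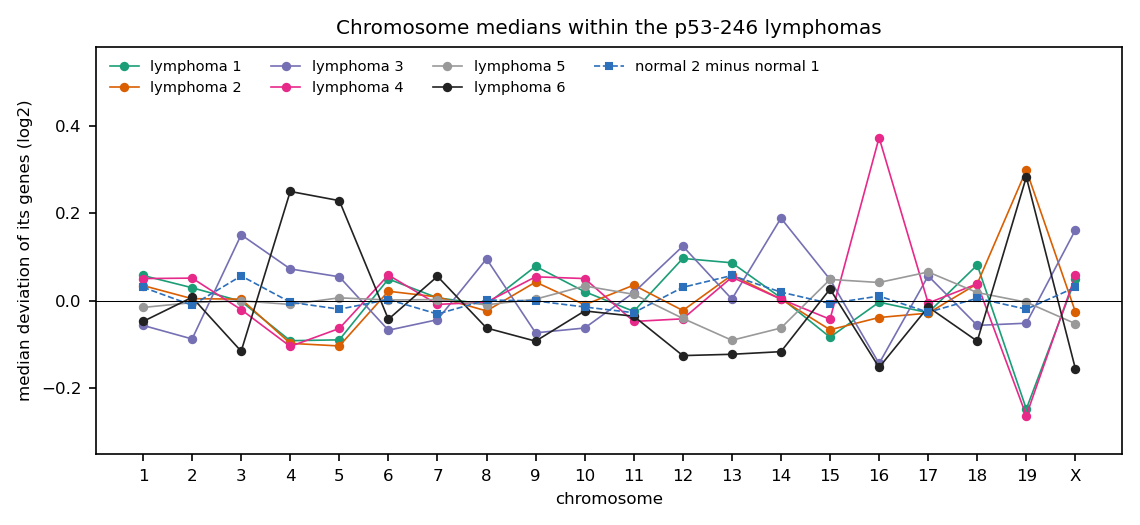
Median deviation of the genes of each chromosome (x axis) from the mean of the 6 p53-246 lymphomas, on the log2 scale relative to each array's own median (y axis), with 1 line per lymphoma and the difference of the 2 p53-246 normal samples dashed. Chromosome 16 in lymphoma 4 stands at 0.373 and chromosome 19 spans -0.262 to 0.299.

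Set against normal cells, chromosome 19 also stood low in the lymphomas as a group. Over its 252 genes above background the median log2 difference was -0.175, with 41 genes higher and 72 lower, against a median of 0.149, 2108 higher and 994 lower for all 7175. Chromosome 5 had the highest median, 0.334, with 179 of 472 genes higher and 43 lower. The median of chromosome 19 against the normal mean was -0.311, 0.029, -0.195, -0.338, -0.19 and -0.105 in lymphomas 1 to 6. In p53-null lymphomas it was -0.019, against 0.244 for all genes there.

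Markers of other cells moved in both directions. Of 18 measured neutrophil genes 7 rose and none fell, against 14.5% and 10.6% of all tested genes. S100a9 stood at 8.32 to 9.79 (median 9.38) in the lymphomas, against 4.25 and 4.91 in the normal samples (log2 difference 4.67, SE 0.49, adjusted p = 1.4e-06). S100a8 stood at 7.70 to 8.97 (median 8.44) in the lymphomas, against 4.32 and 4.41 in the normal samples. Ngp, Lcn2, Cxcr2, Mmp8 and Ltf rose by 1.08 to 2.94. Of these Mmp8 did not pass without normal sample 1 (adjusted p = 0.153), nor Ltf without normal sample 1 (0.085) or 2 (0.0895). The granule genes Mpo, Elane, Prtn3 and Ctsg stood at -0.41, -0.17, -0.10 and -0.19, the last 3 near background in both groups. Summed as linear intensities the list was at 1812 to 3605 in the lymphomas, against 594.8 and 1545 in normal samples 1 and 2. The lowest lymphoma thus lay above both normal samples.

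Macrophage markers fell in 6 of 16 cases and platelet markers in 5 of 8, against 10.6% of all tested genes. In both lists some of these calls were lost without normal sample 2. Cybb, the oxidase subunit of phagocytes that B cells also carry, fell by 4.27 (SE 0.82). Ppbp, a platelet chemokine, stood at 4.61 to 5.44 (median 4.78) in the lymphomas, against 9.84 and 11.13 in the normal samples, at least 38.8-fold lower. Pf4, the other platelet chemokine of the list, stood at 3.98 to 4.99 (median 4.30) in the lymphomas, against 5.05 and 7.59 in the normal samples (adjusted p = 0.00299, and 0.273 without normal sample 2). The summed macrophage list was at 484.4 to 1230 in the lymphomas, against 2933 and 3962 in the normal samples. Cybb alone made up 71.6% and 61.4% of the normal sums, and without it the sum was 442.2 to 630.1 in the lymphomas, against 832.3 and 1527.6 in the normal samples. The platelet list summed to 177.9 to 280.2 in the lymphomas, against 1176 and 2742 in the normal samples. Of 15 T cell markers only Cd2 fell, by 1.59 (SE 0.23). It stood at 8.25 to 9.17 in the lymphomas, against 10.38 and 10.29 in the normal samples, while Cd4 and Cd8a were near background in both groups. Which cells carried the Cd2 transcript was not tested. The list's sum was 819.9 to 986.8 in the lymphomas, against 1766 and 1677 in the normal samples. That difference lay in Cd2, which made up 75.7% and 74.4% of the normal sums: without it the sum was 393.7 to 629.4 in the lymphomas, against 430.0 and 429.3 in the normal samples. Among 8 natural killer, 6 dendritic, 8 erythroid and 13 stromal markers, 3, 3, 1 and 2 fell and none rose, where 10.6% of all tested genes fell. The falls among natural killer markers numbered 1 without normal sample 2, and those among stromal markers 1 without either normal sample. The erythroid fall, Car2, was lost under 8 alternatives, among them centring the arrays and leaving out either normal sample. What part these cells have in the Toll-like receptor, class II, interferon and Gimap results was not tested.

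**Figure D5:**
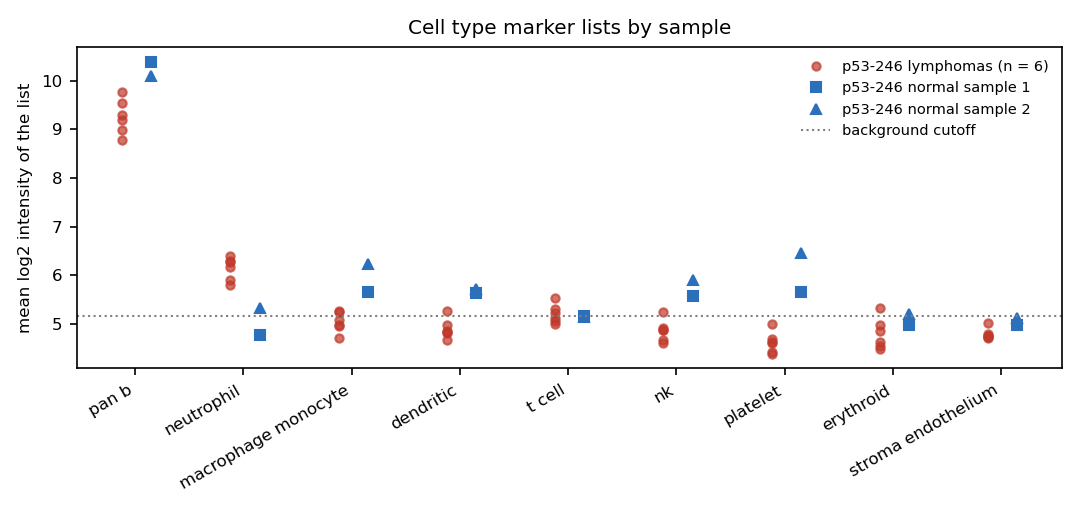
Mean log2 intensity of each cell type marker list (y axis) by sample, with circles for the 6 p53-246 lymphomas and a square and a triangle for p53-246 normal samples 1 and 2. The dotted line is the background cutoff of 5.165. Neutrophil markers lie higher in all 6 lymphomas, and macrophage and platelet markers lie lower, with normal sample 2 above normal sample 1 in all 3 lists.

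The last question was whether the difference depends on the p53 allele. The interaction of genotype and cell type, which subtracts the p53-null difference from the p53-246 one, passed the threshold in 0 of 14860 genes (0%), with 540 genes at an unadjusted p under 0.05 and a smallest adjusted p of 0.997. Without p53-246 normal sample 1 the count was 2. The 95% interval of the interaction reached a median factor of 1.49 to either side, and it lay within 2-fold for 2627 of the 3738 genes. For the other called genes the interval reached past 2-fold, so that a difference of that size between the alleles was not excluded by it. The p53-null normal mean rests on 2 arrays, of which sample 1 had a compressed range too. Its SD over genes was 1.57, against 1.75 in p53-null normal sample 2. The main results stood side by side as follows. Cr2 differed by -6.56 between lymphomas and normal cells in p53-246 mice and by -6.41 in p53-null mice, Bub1 by 4.36 and 4.61, Dctd by 4.55 and 4.53, Myc by -1.97 and -2.62, and Cdkn2a by 1.69 and 1.41. Mdm2 differed by -0.81 and -0.38, with an interaction of -0.43 (95% interval -1.23 to 0.36). S100a9 differed by 4.67 in p53-246 mice and by 2.85 in p53-null mice, with an interaction of 1.81 (95% interval 0.36 to 3.27, adjusted p = 0.997).

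The genes with the smallest interaction p were Enkur, Olfr888, Slc9c1, Fdps and Olfr872 upward and Plxdc2, Tcta, Rplp0, Osgep and Prg4 downward. All 5 upward ones were near background in both p53-246 groups. Plxdc2, a membrane protein, stood at 4.36 to 5.07 (median 4.63) in the p53-246 lymphomas, against 6.06 and 7.15 in the p53-246 normal samples (log2 difference -1.96, SE 0.26, adjusted p = 2.18e-05), and differed by -0.23 in p53-null mice (interaction -1.73, adjusted p = 0.997). Rplp0, a ribosomal stalk protein, differed by 1.69 in p53-246 and by 2.57 in p53-null mice (adjusted p of the interaction = 0.997).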

How the data were processed

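RNA of 16 mouse B cell samples, 6 p53-246 lymphomas, 2 p53-246 normal samples and their p53-null counterparts, was measured on Affymetrix exon arrays. The values were used as the authors deposited them, as log2 intensities from 2.508 to 13.496. Base 2 was inferred, as no label names it: with base e the brightest value would be an intensity of 726214. Partek 6.5 and mm8 are named in the submitters' processing notes with no step, and background treatment and normalization are not given in the sources used here. Groups follow the sample titles.

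Means of the 4 groups were estimated jointly from the 16 arrays with limma 3.58.1 (R 4.3.3), contrasts were taken as lymphoma minus normal, variances were moderated by empirical Bayes, and two-sided p-values were adjusted over 14860 genes (threshold 0.05). Symbols had 136 further transcript clusters, of which 0 had the opposite call. Clusters without exactly 1 symbol (1019 with several, 7317 with none) were used in 1 alternative alone. Motif counts used RefSeq promoters and no test. The number of arrays limits the precision: the median 95% interval of a difference reached a factor of 1.32 to either side. The pipeline was tested on simulated data.

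Members and gene lists were chosen with earlier results of these data known. Named were the 15 largest rises and falls with no overlap of groups, list members (always the 3 with the largest change past the threshold), Myc, Mdm2, Cdkn1a and Cdkn2a, the 10 most variable among lymphomas, the 5 most different between normal samples, and the 5 with the smallest interaction p each way. Alternatives were the 8 p53-246 arrays alone, quantile normalization, centring, array weights, no arrays of compressed range, a filter on dim genes, all transcript clusters, every one-symbol cluster, a variance trend, an ordinary linear model, a replicate block, and leaving out each p53-246 sample. The arrays of compressed range were p53-246 lymphoma 6 and p53-null normal sample 1.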

Additional observations from a re-analysis of the deposited data

Results flagged for a closer look

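Among 139 named genes, 20 had 1 lymphoma whose gap to the nearest of the other 5 was a larger part of the whole range of the 6 than Dixon's 95% limit allows. Chance flags about 1 in 20 groups, a rate that does not hold for the 10 genes named for their spread over the same 6 lymphomas, to which 2 of the 20, Mef2d and Akr1e1, belong. Lymphoma 6, the array with the compressed range, was the one apart in 10 of the 20. It lay below the other 5 for Mnd1 at 6.22 (others 7.69 to 8.35), Chek1 at 9.29 (others 9.70 to 9.92), Cenpk at 8.22 (others 8.97 to 9.41), Wdr12 at 7.71 (others 8.58 to 8.99), Hars at 7.83 (others 8.51 to 8.90), Cct3 at 8.88 (others 9.52 to 9.79), Mef2d at 4.68 (others 7.37 to 8.95) and Ctse at 8.32 (others 10.33 to 10.81). It lay above them for Cd200 at 5.53 (others 4.01 to 4.23) and Fkbp11 at 6.94 (others 5.94 to 6.15).

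Lymphoma 2 was the one apart in 6 genes. It lay above the other 5 for Kynu at 6.89 (others 3.82 to 3.96), Ms4a6c at 7.22 (others 4.76 to 5.43), Cd83 at 5.03 (others 4.07 to 4.38), Cd40 at 6.38 (others 4.93 to 5.36) and Rel at 10.79 (others 7.78 to 8.83). It lay below them for Akr1e1 at 4.52 (others 7.31 to 8.49).

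Lymphoma 3 was apart for Rgs1 at 5.73 (others 4.12 to 4.72) and Fdps at 3.28 (others 3.97 to 4.32). Lymphoma 1 was apart for Clec9a at 4.88 (others 3.88 to 4.04), and lymphoma 4 for Enkur at 4.07 (others 4.39 to 4.57). Lymphoma 5 was apart in 0 genes. All values are log2 intensities.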

How the results depend on the processing

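The comparison of p53-246 lymphomas with p53-246 normal B cells was repeated under 19 alternatives, and in none did a gene called in both change sign. Array weights were 0.167 for lymphoma 6 and 0.876 to 1.709 for the other p53-246 lymphomas. They were 2.188 for each p53-246 normal sample and 0.411 for each p53-null normal sample. In a group of 2 both arrays lie equally far from their mean and get the same weight. The weights thus cannot tell 1 normal sample of a pair from the other. With these weights 6180 genes passed, against 3738 without weights, and 3161 were lower in lymphomas, against 1577. Without 1 replicate the count ranged from 2407 to 4508, the higher genes from 1457 to 2493 and the lower genes from 883 to 2015. The lowest counts came with 1 normal sample left (2418 without normal sample 1 and 2407 without normal sample 2), whose spread is then taken to be that of the other groups, and the highest without lymphoma 6. Leaving out both arrays of compressed range gave 4828 genes, with 2265 lower. Genes higher in lymphomas were 57.8% of those called, between 48.9% with array weights and 67.1% with the arrays centred. The interaction stayed at 0 genes except without normal sample 1, which gave 2 (range 0 to 2): Prg4 (-2.84, adjusted p = 0.00612) and Trim30b (3.32, adjusted p = 0.000193). With the replicate number as a block the count was 3183. The deviations of same-numbered lymphomas and normal samples correlated at -0.047 and 0.018. With 2 normal samples their deviations mirror each other, so these values can neither show nor exclude a pairing by number. The main fit took the samples as unpaired. Of 122 named genes past the threshold, 100 passed it with the same sign under every alternative run. Of the results for named genes under alternatives, 63 lost the threshold, 8 gained it and 2563 kept their side. Each normal mean rests on 2 arrays, and genes near background, 6844 in both groups, give bounds or no fold. In simulated data on this comparison 200 of 14860 genes were changed, and 8% of 1.5-fold and 76% of 2-fold changes were recovered. The adjusted threshold depends on how many genes change. With 3738 genes called in the real data, these shares do not give the sensitivity there.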
